A study of Mus musculus with 10 samples.

Results

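The 10 genes described here, H19, Dlk1, Meg3, Peg3, Peg10, Mest, Plagl1, Grb10, Ndn and Zim1, are imprinted in the mouse and were taken by symbol from the 23230 features of an RNAseq expression matrix, which lists all 10. The matrix covers 10 libraries of a mouse model of gliomagenesis, 1 library per culture. AstroEGFR* (n = 3) are cortical astrocytes of postnatal day 5 C57BL/6 mice that lack p16 and p19 and carry a retroviral vector for human EGFRvIII, the constitutively active glioma mutant of the EGF receptor. The age is that of the labels, and the methods of the study give a range of days that starts at 5. PT (n = 4) are glioma propagating cells cultured from the tumours that such cells formed in the brains of CD1 Nude hosts. AstroEGFR* Zfp423 (n = 3) are AstroEGFR* that also overexpress the zinc finger factor Zfp423 from a vector, which the labels call lentiviral and the methods of the study retroviral. All cultures were below passage 10 and all share the loss of p16 and p19 and the EGFRvIII transgene. Both AstroEGFR* cultures of a batch come from 1 astrocyte preparation, while batch 1 gave rise to both PT1 and PT4, batch 2 to PT2 and batch 3 to PT3. Serum was present in the medium of AstroEGFR* and absent from that of PT, which held growth factors instead. The tumour step and the medium therefore cannot be told apart in their comparison.

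Imprinted genes are transcribed mainly from the copy inherited from one parent. They lie in clusters, each under an imprinting control region whose DNA carries methylation from one germline only, and many act on fetal growth, where paternally expressed members tend to promote growth and maternally expressed members to restrain it. In gliomas and other tumours their dosage is often disturbed. The values here are the sum of both parental copies, and the parental origin of the transcripts was not analysed here.

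The members fall into known clusters. On chromosome 12, Dlk1, a membrane protein related to the Notch ligands, is paternally expressed beside the maternally expressed non-coding RNA Meg3. Peg3 and Zim1 are neighbouring zinc finger genes on chromosome 7 with opposite parental expression. Grb10 encodes an adaptor that inhibits insulin and IGF receptor signalling, and it is transcribed from the maternal copy in most tissues and, from a second promoter, from the paternal copy in neurons. Mest encodes a hydrolase-like protein, Peg10 a protein derived from a retrotransposon, Plagl1 a zinc finger transcription factor also known as Zac1, Ndn a MAGE family protein of postmitotic neurons, and H19 a non-coding RNA that shares its control region with the growth factor gene Igf2.

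The stretches of 250 bases before 5 RefSeq start sites are shown for 4 members whose levels vary together or between groups in the following comparisons. They come from RefSeq on GRCm38.p6, while the expression values were made on mm9, and each is written on the strand of its gene. Capitals mark the hexamer TGCCGC or its reverse complement, the core that ZFP57 binds when methylated, in lower-case surroundings. ZFP57 is the zinc finger protein that protects methylation at imprinting control regions. None of the 5 holds an exonic base in the GENCODE vM21 annotation.
Grb10, upstream start, chr11:12037421-12037670, minus strand: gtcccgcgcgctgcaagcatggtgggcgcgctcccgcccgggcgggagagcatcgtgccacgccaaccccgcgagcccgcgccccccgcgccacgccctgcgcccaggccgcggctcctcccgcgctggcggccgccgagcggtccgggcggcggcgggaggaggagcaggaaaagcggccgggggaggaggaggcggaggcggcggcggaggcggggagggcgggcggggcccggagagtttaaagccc
Grb10, downstream start, chr11:12027972-12028221, minus strand: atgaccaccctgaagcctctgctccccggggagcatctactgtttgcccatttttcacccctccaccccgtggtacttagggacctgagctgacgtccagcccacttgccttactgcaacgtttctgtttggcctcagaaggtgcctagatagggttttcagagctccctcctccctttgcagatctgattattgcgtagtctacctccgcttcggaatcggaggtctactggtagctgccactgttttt
Mest, chr6:30737800-30738049, plus strand: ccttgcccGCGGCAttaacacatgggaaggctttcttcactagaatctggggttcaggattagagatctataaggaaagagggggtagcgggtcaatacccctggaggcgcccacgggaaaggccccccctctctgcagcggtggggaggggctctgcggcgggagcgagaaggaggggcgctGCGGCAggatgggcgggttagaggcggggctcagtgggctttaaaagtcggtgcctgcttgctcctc
Meg3, chr12:109540746-109540995, plus strand: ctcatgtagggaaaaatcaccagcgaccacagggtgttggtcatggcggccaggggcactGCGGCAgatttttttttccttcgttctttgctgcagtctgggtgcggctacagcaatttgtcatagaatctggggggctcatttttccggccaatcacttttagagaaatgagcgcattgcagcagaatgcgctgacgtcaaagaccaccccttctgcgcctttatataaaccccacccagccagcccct
Dlk1, chr12:109452573-109452822, plus strand: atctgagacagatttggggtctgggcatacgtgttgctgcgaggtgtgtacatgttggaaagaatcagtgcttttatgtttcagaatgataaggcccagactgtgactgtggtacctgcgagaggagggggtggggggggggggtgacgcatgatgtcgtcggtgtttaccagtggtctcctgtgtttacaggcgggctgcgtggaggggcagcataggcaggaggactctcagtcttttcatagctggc
The Mest stretch and both Grb10 stretches lie within the annotated genes but outside their exons, and those of Meg3 and Dlk1 lie in no annotated gene. The Mest stretch holds 2 copies of TGCCGC and the Meg3 stretch 1, counted on both strands with overlaps allowed, and the stretches of Grb10 and Dlk1 hold 0. Of 32851 such stretches before mouse start sites, 8.68% hold at least 1 copy. The stretch before the upstream Grb10 start holds 40 CpG dinucleotides and 5 copies of GGGCGG, the GC box, a motif found in 32.7% of all stretches, and that before the downstream start holds 8 CpG dinucleotides and 0 copies of GGGCGG. The median stretch holds 6 CpG dinucleotides. A further start of Mest and one of Meg3, each with exonic bases in its stretch and so not shown, hold 0 copies of TGCCGC, with 7 CpG dinucleotides for Mest and 0 for Meg3, and another Mest stretch overlaps the one shown. The expression values are per gene and do not say which start was used.

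The matrix gives FPKM, a fragment count scaled by transcript length and by the size of the library. Its columns summed to 361102 to 860068 FPKM, and 14075 to 17030 features were above 0. No counts were used here, so the depth behind each value is unknown, but the steps of weakly expressed features placed AstroEGFR* of batch 3 at 0.0708 and PT3 at 0.0921 of the depth of PT1, and the other libraries at 0.507 or more. Gapdh, a gene of glycolysis that all cells use, had between 0.0106 and 50.1 FPKM, and Hmgcs1, of cholesterol synthesis, had a 0 throughout, so a 0 is called a listed value here and nothing more. Zfp423 itself was at 15.7, 9.73 and 105 FPKM in the AstroEGFR* Zfp423 libraries of batches 1, 2 and 3 and at 3.25 to 4.30 FPKM in AstroEGFR*. The astrocyte marker Gfap was at 47.3 to 725 FPKM in AstroEGFR* and 5.95 to 95.6 FPKM in PT, but at 7.94, 1.11 and 393 FPKM in AstroEGFR* Zfp423, so the labelled cell type was weakly marked in the batch 2 library. Xist, the RNA of the inactive X chromosome, was at 20.4 to 34.9 FPKM in the 3 libraries of batch 2 and at 0.0403 FPKM or less in the other 7, and batch 2 thus stood apart in all 3 groups.

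**Figure D1:**
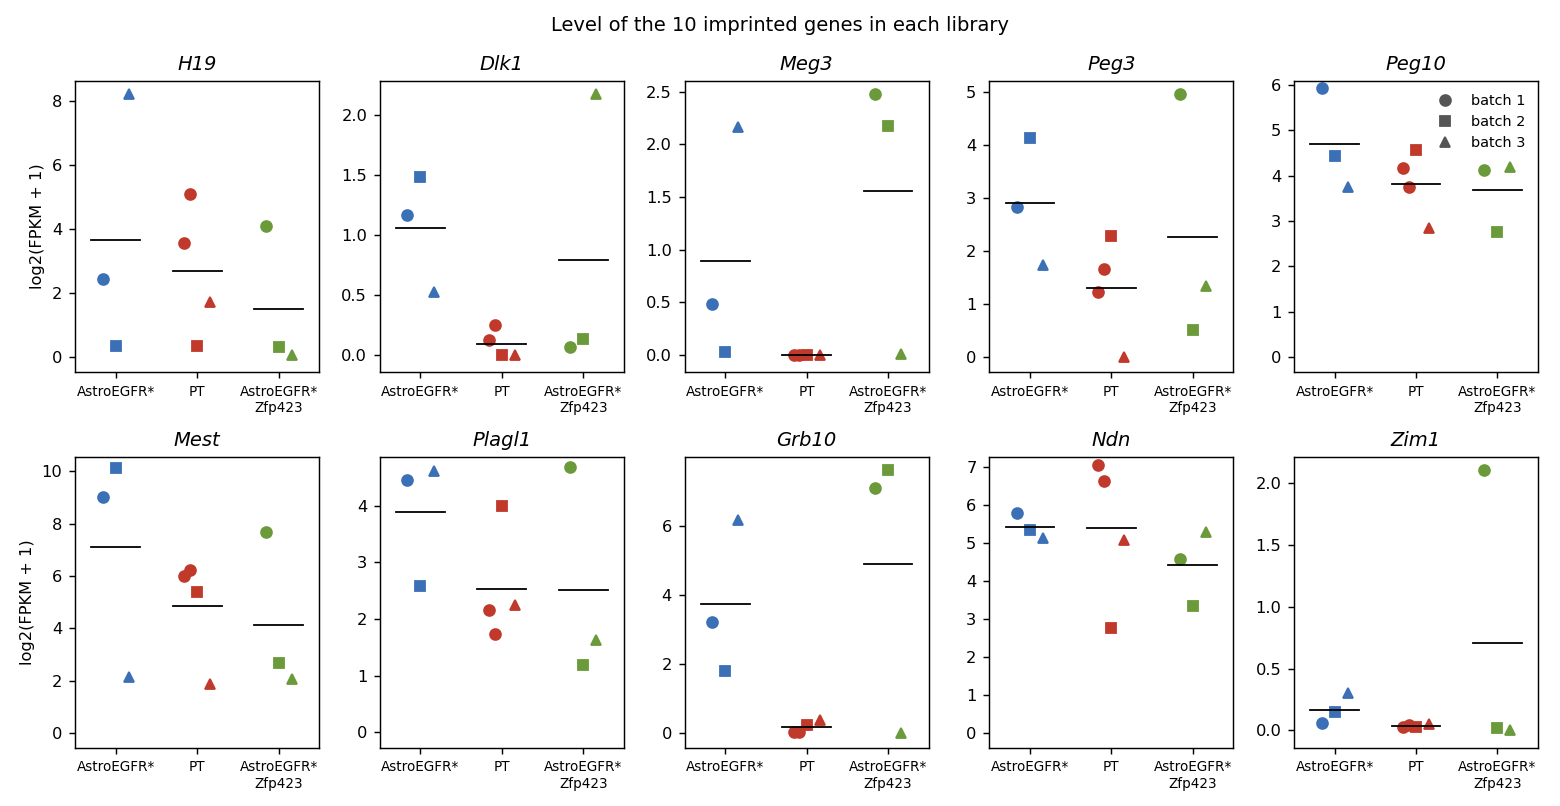
Level of each imprinted gene in every library as log2(FPKM + 1), by group, with the astrocyte batch as the symbol and the group mean as a line. Grb10, Meg3 and Dlk1 lie lower in all 4 PT libraries than in all 3 AstroEGFR* libraries, while the AstroEGFR* Zfp423 libraries are spread over the widest range for Grb10, from 0 to 195 FPKM.

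The first comparison asks how imprinted genes differ between the glioma propagating cells and the transformed astrocytes from which they derive. Grb10, Dlk1, Meg3 and Zim1 were listed lower in every PT than in every AstroEGFR* library, 4 of the 10 members, where 7.75% of the 18579 features above 0 in any of these 7 libraries were so ordered. Compared only within astrocyte batches, Peg3 and Mest joined them, so that 6 of the 10 were listed lower in all 4 pairs, against 16.3% of the same features. The members were chosen with earlier results of these data known, and Dlk1 with Meg3 and Peg3 with Zim1 share clusters. The counts are therefore a description and not a test. Listed zeros enter the order of Meg3 in all 4 PT, that of Dlk1 in PT2 and PT3, and that of Peg3 in PT3. Of the 7 members above 0 in all 7 libraries, Grb10 and Zim1 were lower in every PT (2 of 7, against 7.96% of 13169 such features) and, with Mest, in all 4 pairs (3 of 7, against 18.6%). Without the shallow batch 3 both counts were 6, against 15.8% and 23% of the features above 0. Grb10 apart, the 4 ordered members were weak, Zim1 below 0.231 FPKM, Dlk1 below 2 FPKM and Meg3 below 4 FPKM in these libraries.

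The levels were also compared with limma on log2(FPKM + 1) for features averaging 1 FPKM or more, with Benjamini-Hochberg adjustment over all of them. Of 12261 features, 1.24% passed an adjusted p of 0.05, 39 higher and 113 lower in PT. Of the 10 members 7 could be tested, since Dlk1, Meg3 and Zim1 were under 1 FPKM on average, and 0 passed. At an unadjusted p under 0.05 there was 1 such member, against 1664 of all features. Each of the 7 had an estimate below 0, the median being -1.35 against 0.03 over all features tested, although those of H19 and Ndn turned when single libraries were left out. With the astrocyte batch as a block, 3.87% of all features passed, 146 higher and 329 lower, and 1 member, Peg3, was among them.

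**Figure D2:**
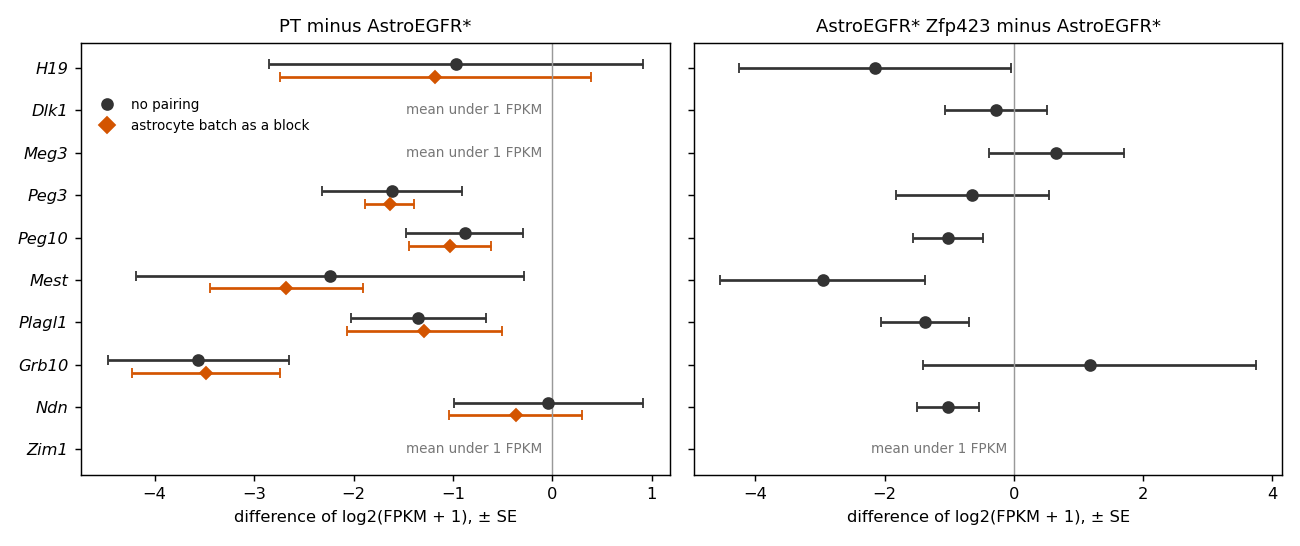
Difference of log2(FPKM + 1) with its standard error for each member in both limma comparisons, with PT minus AstroEGFR* fitted without pairing (circles) and with the astrocyte batch as a block (diamonds). All 7 members tested in PT lie at or left of 0, from Grb10 at -3.56 to Ndn at -0.04, and the error bars of Grb10 in the Zfp423 comparison, 2.57 on either side of 1.17, reach across 0.

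Grb10 showed the largest difference among the members tested over all 7 libraries, while that of Mest was larger without batch 3 (-3.72 against -2.40 on the log2 scale) and without AstroEGFR* of batch 3 (-4.71 against -2.34). It was at 8.32, 2.45 and 71.1 FPKM in AstroEGFR* of batches 1, 2 and 3, against 0.0194, 0.179, 0.285 and 0.0270 FPKM over PT1 to PT4. Thus no PT library reached 1 FPKM, and the groups did not overlap. Grb10 passed the filter on low values only through AstroEGFR*, whereas Dlk1 and Meg3, in the same order, fell under it. On the log2(FPKM + 1) scale, which understates the change of weak genes, the difference was -3.56 with a standard error of 0.91, and its adjusted p with limma was 0.132. With the batch as a block, the difference was -3.48 with a standard error of 0.75 and an adjusted p of 0.0688 with limma, which passed (adjusted p = 0.0323) with a pseudocount of 0.1 in place of 1. Over the 19 alternatives the limma adjusted p of Grb10 was 0.0323 to 0.396 and the difference -5.84 to -2.34. Cobl, an actin nucleator gene beside Grb10, overlapped between the groups, at 1.62 to 9.21 FPKM in AstroEGFR* and at 0.0356 to 8.29 FPKM in PT. Like Grb10 and 16.3% of all features above 0, Cobl was lower than in AstroEGFR* in all 4 within-batch pairs. The factors were 1.11-, 45.5-, 18.0- and 2.47-fold over PT1 to PT4. Ddc, also beside Grb10, was at 0.730 FPKM or less and lower in PT in only 1 of the 4 pairs.

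The cells of the Grb10 comparison also differed in markers of fibroblasts and meninges, cells that can accompany astrocytes in cortical cultures. Of 15 such markers 13 could be tested. Each of these 13 had a negative estimate, as had 5872 of all 12261 features, and the median log2 difference was -2.62. Of the 13, 1 passed, the receptor gene Pdgfrb (-4.14, limma adjusted p = 0.0200). The summed level of the 15 was 616, 652 and 6273 FPKM in AstroEGFR* and 105, 66.0, 775 and 59.1 FPKM in PT1 to PT4. Between 4 and 11 of the 15 were under 1 FPKM in a PT library, against 2 or 3 in AstroEGFR*. Those listed at 0 in any PT were Slc6a13, Foxd1, Crabp2 and Fap, and Slc6a13 was also listed at 0 in AstroEGFR* of batches 2 and 3. Of other markers tested, 6 of the oligodendrocyte lineage, 9 of astrocytes, 3 of neurons, 2 of microglia and 1 of endothelium, 0 passed, and the summed oligodendrocyte lineage markers were at 131 to 1689 FPKM in PT and 66.8 to 223 FPKM in AstroEGFR*. In bulk libraries fewer cells of a type and less RNA per cell cannot be told apart, and the part of such cells in the differences of the imprinted genes was not tested.

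In the Dlk1-Meg3 cluster, transcripts other than Rian stayed under 4 FPKM in the 7 AstroEGFR* and PT libraries. Meg3 was at 0.401, 0.0206 and 3.49 FPKM in AstroEGFR* of batches 1, 2 and 3 and listed at 0 in all 4 PT libraries. Its neighbour Rian, a long RNA that hosts small nucleolar RNAs, was at 1.32, 0.0847 and 21.0 FPKM in AstroEGFR* and at 0 to 0.137 FPKM in PT. Mirg, the microRNA-bearing transcript of the cluster, and Dio3, which encodes a thyroid hormone deiodinase, were likewise listed at 0 in all PT libraries, and reached 1.11 and 2.74 FPKM in AstroEGFR* of batch 3. The paternally expressed Dlk1 was at 1.25, 1.80 and 0.440 FPKM in AstroEGFR*, against 0.0908, 0, 0 and 0.187 FPKM over PT1 to PT4, so that its order over the AstroEGFR* batches was opposite to that of Meg3. At these levels a value of Dlk1 or Meg3 can rest on few fragments, the more so in the 2 shallow libraries. Rtl1, the retrotransposon-like gene of the cluster, was at 0.0301 FPKM or less in both groups.

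Peg3 was at 6.16, 16.7 and 2.34 FPKM in AstroEGFR*, against 1.33, 3.89, 0 and 2.18 FPKM over PT1 to PT4. The groups overlapped, since PT2 lay above AstroEGFR* of batch 3, but each PT lay below the AstroEGFR* of its own batch. It was 4.63-fold lower in PT1, 4.29-fold lower in PT2 and 2.83-fold lower in PT4, and PT3 listed it at 0. Without pairing the log2 difference was -1.61 with a standard error of 0.70 and a limma adjusted p of 0.372, and it was -0.996 without AstroEGFR* of batch 2 and -2.57 with a pseudocount of 0.1. With the astrocyte batch as a block it was -1.64 with a standard error of 0.25 and passed (limma adjusted p = 0.0350). This call was lost without batch 3 (adjusted p = 0.120), without PT1 (adjusted p = 0.114), without PT4 (adjusted p = 0.101) and with a pseudocount of 0.1 (adjusted p = 0.0717), all with the block in limma, while the difference ranged from -2.72 to -1.59. Over the 19 alternatives its limma adjusted p was 0.0350 to 0.653. The maternally expressed Zim1 beside it was under 0.231 FPKM in all 7 libraries, from 0.0394 to 0.230 FPKM in AstroEGFR* and from 0.0200 to 0.0352 FPKM in PT, too weak for the limma fit. Usp29, which shares the start region of Peg3 on the other strand, was at 0.0180 FPKM or less in both groups.

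Mest reached the highest level of all members. It was at 520 and 1126 FPKM in AstroEGFR* of batches 1 and 2 but at 3.41 FPKM in that of batch 3, and PT1 to PT4 were at 62.4, 40.3, 2.70 and 73.8 FPKM. Batch 3 was thus low in both groups. The PT library was 8.34-fold lower than AstroEGFR* in PT1, 27.9-fold in PT2, 1.26-fold in PT3 and 7.05-fold in PT4. The log2 difference was -2.23 with a standard error of 1.95 and a limma adjusted p of 0.692 without pairing, and -2.67 with a standard error of 0.77 and an adjusted p of 0.111 with the block. Single libraries moved the unpaired difference, to -0.72 without AstroEGFR* of batch 2, to -1.27 without that of batch 1, to -1.24 without PT3 and to -4.71 without AstroEGFR* of batch 3. Copg2, which overlaps the end of Mest on the opposite strand, was at 31.3 to 41.5 FPKM in AstroEGFR* and 26.9 to 70.6 FPKM in PT and did not follow it. Whether strand was used in counting is not given in the sources used here, and without it reads in the overlap of Mest and Copg2 cannot be told apart.

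Peg10 and Plagl1 overlapped between the groups. Peg10 was at 59.9, 20.7 and 12.4 FPKM in AstroEGFR*, against 16.9, 22.6, 6.13 and 12.4 FPKM over PT1 to PT4, a log2 difference of -0.88 with a standard error of 0.59 (limma adjusted p = 0.583). This difference was -0.27 without AstroEGFR* of batch 1, -1.36 without AstroEGFR* of batch 3 and -0.55 without PT3. Sgce, the sarcoglycan gene that shares its start region with Peg10, was steadier over all 10 libraries, at 25.6 to 45.3 FPKM. Plagl1 was at 20.8, 4.97 and 23.6 FPKM in AstroEGFR*, against 3.47, 14.9, 3.76 and 2.31 FPKM over PT1 to PT4, a log2 difference of -1.35 with a standard error of 0.68 (limma adjusted p = 0.445), which was -0.89 without batch 3. Only in batch 2 was Plagl1 higher in PT than in AstroEGFR*, by 3.01-fold.

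H19 differed more between cultures than between groups. It was at 4.37, 0.262 and 294 FPKM in AstroEGFR*, against 10.9, 0.273, 2.31 and 33.0 FPKM over PT1 to PT4. The log2 difference of -0.97, with a standard error of 1.88 and a limma adjusted p of 0.880, rested on AstroEGFR* of batch 3 and was 1.30 without that library. Igf2, the fetal growth factor gene next to H19, was at 1.64, 0.0683 and 268 FPKM in AstroEGFR*, against 0.00315, 0.180, 1.10 and 0.357 FPKM over PT1 to PT4. Both genes were therefore at their highest in the same AstroEGFR* culture, whereas PT1 and PT4 listed H19 above 10 FPKM and Igf2 below 1 FPKM. Ndn was at 55.1, 39.9 and 34.0 FPKM in AstroEGFR*, against 133, 5.85, 33.0 and 98.1 FPKM over PT1 to PT4. Its log2 difference was -0.04 with a standard error of 0.95 (limma adjusted p = 0.992), with both PT of batch 1 above and PT2 below their AstroEGFR*. Peg12, a neighbour of Ndn, was also at its highest in PT1 and PT4, at 30.6 and 23.1 FPKM, against 5.18 to 14.0 FPKM in AstroEGFR* and 6.36 to 6.77 FPKM in the other PT. The oligodendrocyte lineage markers also summed highest in PT1 and PT4, at 1357 and 1689 FPKM, and a link to these genes was not tested.

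**Figure D3:**
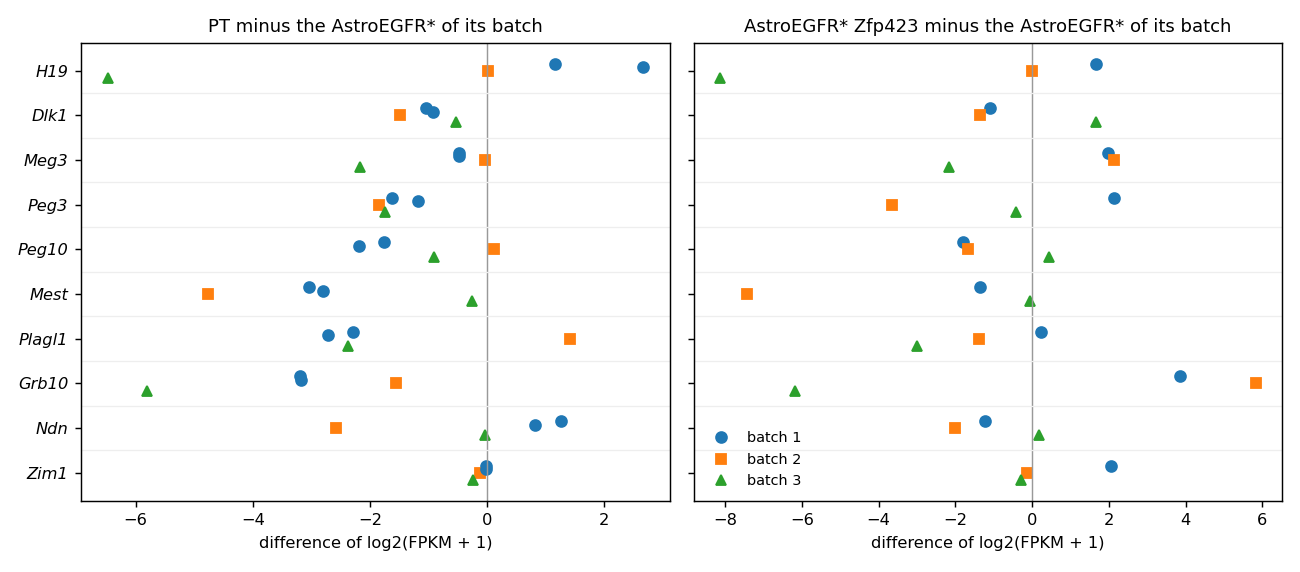
Difference of log2(FPKM + 1) of each member within the astrocyte batches, PT (left) or AstroEGFR* Zfp423 (right) minus the AstroEGFR* library of the same batch. On the left, Dlk1, Meg3, Peg3, Mest, Grb10 and Zim1 lie below 0 in all 4 pairs. On the right, Grb10 lies at 3.87 and 5.83 in batches 1 and 2 and at -6.17 in batch 3.

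The second comparison asks what Zfp423 does in AstroEGFR*, within the 3 batches. With limma and the astrocyte batch as a block, 0 features of 12366 passed (0%), 913 had an unadjusted p under 0.05, and 2 passed without the block. Of the members 9 could be tested, all but Zim1. None of the 9 passed or reached an unadjusted p of 0.05, and their estimates were higher for 2 and lower for 7, with a median of -1.02 against 0.02 over all features. The 3 batches disagreed on direction for 9 of the 10 members, Mest being lower in all 3. For the exact test over 3 pairs, the smallest p possible is 0.25.

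Grb10 was higher with Zfp423 in 2 batches and listed at 0 in the third. From AstroEGFR* to AstroEGFR* Zfp423 it went from 8.32 to 135 FPKM in batch 1, from 2.45 to 195 FPKM in batch 2 and from 71.1 FPKM to a listed 0 in batch 3. It was thus 16.2-fold higher with Zfp423 in batch 1 and 79.6-fold higher in batch 2. The mean log2 difference of 1.17 with a standard error of 2.57 (limma adjusted p = 0.909) averages differences of opposite sign. It was -1.15 without batch 2, -0.17 without batch 1 and 4.85 without batch 3. Meg3 followed the same course, from 0.401 to 4.57 FPKM, from 0.0206 to 3.51 FPKM and from 3.49 to 0.00521 FPKM, and so did Rian, from 1.32 to 10.7 FPKM, from 0.0847 to 15.5 FPKM and from 21.0 to 0.0459 FPKM. Dlk1 went the other way in each batch, from 1.25 to 0.0442 FPKM, from 1.80 to 0.0931 FPKM and from 0.440 to 3.53 FPKM.

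Mest and H19 each had 1 batch with a far larger difference than the others, and Peg3 had differences of opposite sign in batches 1 and 2. Mest went from 520 to 201 FPKM in batch 1, from 1126 to 5.46 FPKM in batch 2, which is 206-fold lower, and from 3.41 to 3.22 FPKM in batch 3 (log2 difference -2.96, standard error 1.58, limma adjusted p = 0.661). The Mest difference was -0.71 without batch 2, -3.75 without batch 1 and -4.41 without batch 3. Peg3 went from 6.16 to 30.3 FPKM in batch 1 and from 16.7 to 0.418 FPKM in batch 2, and was at 2.34 and 1.52 FPKM in batch 3. H19 went from 294 to 0.0560 FPKM in batch 3 and from 4.37 to 16.1 FPKM in batch 1, and stayed at 0.262 and 0.260 FPKM in batch 2. Igf2 went with H19 in batches 1 and 3, from 1.64 to 14.1 FPKM and from 268 to 0.0388 FPKM. Zim1 reached 3.32 FPKM in batch 1 with Zfp423 and was at 0.0112 FPKM and 0 in the other AstroEGFR* Zfp423 libraries.

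Peg10, Ndn and Plagl1 were each higher with Zfp423 in 1 batch and lower in the other 2. Peg10 went from 59.9 to 16.3 FPKM, from 20.7 to 5.76 FPKM and from 12.4 to 17.3 FPKM (log2 difference -1.02, standard error 0.54, limma adjusted p = 0.661). Ndn went from 55.1 to 23.2 FPKM, from 39.9 to 9.17 FPKM and from 34.0 to 38.4 FPKM (log2 difference -1.02, standard error 0.48, limma adjusted p = 0.644). Plagl1 went from 20.8 to 24.8 FPKM, from 4.97 to 1.29 FPKM and from 23.6 to 2.10 FPKM (log2 difference -1.38, standard error 0.68, limma adjusted p = 0.652). With 1 batch left out, the difference ranged from -1.75 (without batch 3) to -0.62 (without batch 1) for Peg10, from -1.61 (without batch 3) to -0.52 (without batch 2) for Ndn and from -2.19 (without batch 1) to -0.57 (without batch 3) for Plagl1. None of these passed, and the batch that was higher with Zfp423 was batch 3 for Peg10 and Ndn and batch 1 for Plagl1.

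Markers of other cells also differed between these libraries. The 15 fibroblast and meninges markers summed to 4979 and 8383 FPKM in AstroEGFR* Zfp423 of batches 1 and 2 and to 470 FPKM in that of batch 3. In the AstroEGFR* of the same batches they summed to 616, 652 and 6273 FPKM, so the sums went in the same directions as Grb10 and Meg3. Single markers were split, since of the 14 tested with Zfp423 8 had a positive and 6 a negative estimate, and 0 passed with limma. The 8 microglia markers summed to 545 and 352 FPKM in AstroEGFR* Zfp423 of batches 1 and 2 and to 1.28 to 39.5 FPKM in the other 8 libraries. All 8 were above 1 FPKM in both high libraries, while Aif1 and Itgam were listed at 0 in AstroEGFR* Zfp423 of batch 3. The 9 astrocyte markers summed to 211, 64.5 and 926 FPKM in AstroEGFR* Zfp423 and to 526 to 1085 FPKM in AstroEGFR*. All 9 had a negative estimate with Zfp423, as had 5969 of all 12366 features, and the median log2 difference was -1.73. With limma 4 of the 9 had an unadjusted p under 0.05, against 913 of all features, and 0 passed, as over all features. The part of these cells in the values of the imprinted genes was not tested.

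**Figure D4:**
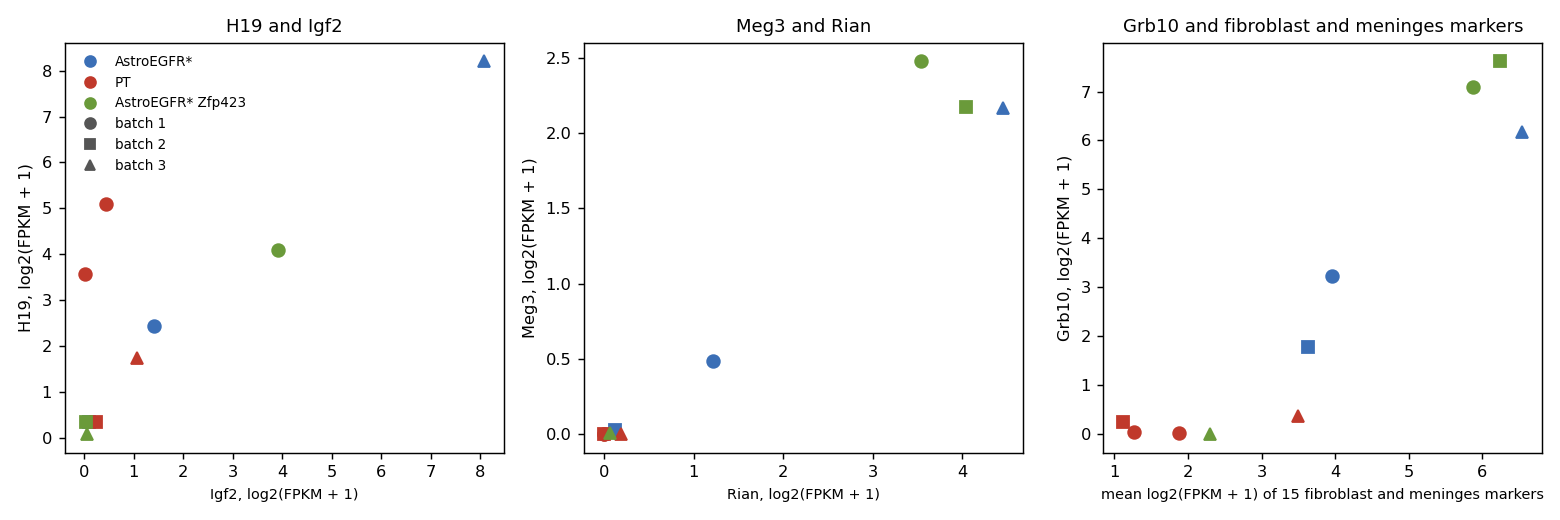
H19 against Igf2, Meg3 against Rian, and Grb10 against the mean of 15 fibroblast and meninges markers, all as log2(FPKM + 1), 1 point per library, with colour for the group and the symbol for the batch. Pearson's r over the 10 libraries is 0.80, 0.98 and 0.94, and the libraries high in Meg3 and Grb10 are AstroEGFR* of batch 3 and AstroEGFR* Zfp423 of batches 1 and 2.

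Over all 10 libraries the members varied more than most features. The standard deviation of log2(FPKM + 1) was 3.16 for Grb10, 3.04 for Mest and 2.65 for H19, above that of 99.2%, 99.0% and 98.5% of the 12476 features averaging 1 FPKM or more. The median was 1.46 for the 8 members in this set and 0.54 over all its features. The correlations that follow are descriptions over 10 libraries that share astrocyte batches, depth differences and culture conditions.

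Members of 1 cluster did not always vary together. Meg3 followed its maternally expressed neighbours Rian (Pearson's r = 0.98) and Mirg (r = 0.97), and H19 followed Igf2 (r = 0.80). Peg3 and Zim1 had r = 0.68, Ndn and Snrpn r = 0.46, Plagl1 and Phactr2 r = 0.26 and Grb10 and Ddc r = 0.15, but Meg3 and Dlk1 had r = -0.29, Peg10 and Sgce r = -0.26 and Mest and Copg2 r = -0.31. Between clusters, Meg3 and Grb10 had r = 0.97 and Peg3 and Mest r = 0.79. Over the 28 pairs of the 8 members in the set, 18 had an r above 0 and the median r was 0.26.

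The features most like Grb10 were Col6a3, a collagen VI chain (r = 0.997), Fxyd5, an ion transport regulator (r = 0.995), and Mmp2, a matrix metalloproteinase (r = 0.993). Those most like Meg3 were Rftn1 (r = 0.995), the matrix proteoglycan gene Aspn (r = 0.992) and Arhgap28 (r = 0.988). With the mean of the fibroblast and meninges markers, r was 0.94 for Grb10 and 0.90 for Meg3, and between -0.29 and 0.46 for the other 8 members. H19 was most like Smoc1 (r = 0.952), Tmem20 and Rasl11b. Peg3 was most like 2 zinc finger genes, Zfp748 (r = 0.909) and Zfp59, and the chromatin remodeller gene Chd9, and Mest was most like Zfp418 (r = 0.956), Zfp324 and 1110021J02Rik. Peg10 was most like Usp20 (r = 0.962), Wbscr27 and Pbxip1, Plagl1 like Spats2l (r = 0.924), Lbp and Wnt5a, and Ndn like Rab5c (r = 0.962), Hmgb3 and Tmem19. Dlk1 and Zim1 were under 1 FPKM on average and were left out of this search.

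Other imprinted genes were split in direction in PT. Of 61 listed, 58 were in the matrix and 33 could be tested in PT against AstroEGFR*: 0 passed with limma, 18 were estimated higher and 15 lower, and the median log2 difference was 0.08. An unadjusted p under 0.05 was reached by 5 of the 33, against 1664 of all 12261 features. With Zfp423, 34 could be tested and 0 passed, as over all 12366 features, with 1 at an unadjusted p under 0.05, against 913 of all features. Of the 34, 12 were estimated higher and 22 lower, and the median was -0.14. Among them Ube3a, a ubiquitin ligase gene near Ndn, was at 20.1 to 45.9 FPKM over all 10 libraries and Snrpn, which encodes a splicing protein, at 1.82 to 10.4 FPKM. Of the remaining neighbours of the members, over the same libraries, Phactr2 near Plagl1 was at 3.75 to 11.8 FPKM, Ppp1r9a near Peg10 at 0.431 to 12.6 FPKM and Mkrn3 near Ndn at 0.283 to 3.18 FPKM. Ddc near Grb10 was at 0.730 FPKM or less, Asb4 near Peg10 at 0.0769 FPKM or less, Magel2 near Ndn at 0.00357 FPKM or less, and Klf14 near Mest was listed at 0 throughout.

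No gene of imprint maintenance passed. All 22 listed were in the matrix, 19 could be tested in PT and 18 with Zfp423, and 0 passed with limma in either comparison. With Zfp423 0 of all 12366 features passed. At an unadjusted p under 0.05 there were 0 in PT, against 1664 of 12261 features, and 2 with Zfp423, against 913 of 12366. The 2 were Mbd3 (log2 difference -1.13) and Uhrf1 (-1.04). The median log2 differences of the list were -0.02 in PT and 0.11 with Zfp423. Zfp57 was at 1.90 to 5.33 FPKM in AstroEGFR*, 2.55 to 4.53 FPKM in PT and 1.81 to 9.84 FPKM in AstroEGFR* Zfp423, so the groups overlapped.

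The IGF pathway carries the signal of Igf2 through the receptors Igf1r and Insr to the adaptors Irs1 and Irs2, with Igf2r as the receptor that removes the ligand and Grb10 as an inhibitor. Of 12 listed partners, 10 could be tested in PT and 11 with Zfp423, and 0 passed with limma in either comparison, with 1 in each at an unadjusted p under 0.05. Over all features 1664 of 12261 in PT and 913 of 12366 with Zfp423 reached that p, and 0 passed with Zfp423. In PT, 3 partners were estimated higher and 7 lower, with a median log2 difference of -0.37, and Igf2 itself had a difference of -2.75 with a standard error of 1.70 (limma adjusted p = 0.548). Igf2 was at 1.64, 0.0683 and 268 FPKM in AstroEGFR*, so this difference leaned on the batch 3 library. In PT2 it was 2.63-fold higher than in AstroEGFR* of batch 2. With Zfp423, 5 partners were estimated higher and 6 lower, with a median of -0.04. Igf2r was at 20.3 to 79.8 FPKM over all 10 libraries.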

How the data were processed

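The authors deposited 1 matrix of FPKM values for 23230 features. Per the labels, TopHat 1.3 and Cuffnorm were used with mm9. The labels name a TruSeq RNA kit and the methods of the study ribosomal RNA removal and a stranded kit. FPKM are not counts. The main test was limma 3.58.1 (R 4.3.3) on log2(FPKM + 1), keeping features that averaged 1 FPKM or more, with a trend and Benjamini-Hochberg adjustment over all features tested. Its code was run on simulated data with independent noise, which held no shared batches and no differences in depth. The batch block for Zfp423 comes from the design. For PT the batches come from a figure key of the study, not from the labels. Deviations from the group means correlated with r of 0.346 to 0.499 in the 4 same-batch pairs of PT, and of 0.241, -0.111 and -0.262 in those of Zfp423. P-values of the unpaired PT fit measure the spread between cultures, with PT1 and PT4 of 1 batch counted separately. Those of the blocked fits measure the spread of differences within batches, where PT1 and PT4 share 1 AstroEGFR* library. Alternatives concerned the pseudocount, the filter, median-ratio scaling, the trend, the libraries fitted and the block. The block combined with another choice, and counts of ordered members under other settings, were chosen after the values were seen. The members and their cluster neighbours in the matrix are named, with the 3 features most like 8 of the members by Pearson's r. Gfap, Gapdh, Hmgcs1, Xist, Zfp57, Mbd3, Uhrf1, Igf2r and Pdgfrb were named after their values were seen. The members and lists were chosen with earlier results of these data known. RefSeq promoters matched 8 of the 10 members. Python 3.11.15, numpy 2.4.6, pandas 2.3.3 and matplotlib 3.10.9 were used.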

Additional observations from a re-analysis of the deposited data

How the results depend on the processing

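Of 204 refits of the 16 member differences, 188 kept their direction and their side of the threshold, 2 passed it (Peg3 with the block, Grb10 with the block and a pseudocount of 0.1) and 14 changed sign, and 9 of the 16 never changed sign. In PT against AstroEGFR*, the log2 difference of H19 was 1.62 without batch 3, 1.09 without batch 3 with the block and -2.63 to 1.30 with 1 library left out, above 0 without AstroEGFR* of batch 3. That of Ndn was -0.60 to 0.83 with 1 library left out, above 0 without AstroEGFR* of batch 1, PT2 or PT3. In the Zfp423 comparison with 1 batch left out, Dlk1 ranged from 0.15 to 0.27, leaving out batch 3 putting it under the filter, Meg3 from -0.085 to 2.07 and Grb10 from -1.15 to 4.85, each turned without batch 1 and without batch 2. Peg3 ranged from -2.03 to 0.86, turned without batch 2, and H19 from -4.06 to 0.84, turned without batch 3. The cause was not tested. Against 152 features called in PT, 82 were called with all 10 libraries in 1 fit, 61 with PT1 and PT4 averaged, 8 without batch 3 and 7 to 123 with 1 library left out, fewest without AstroEGFR* of batch 1. With the replicate block by batch 475 were called, 548 with a pseudocount of 0.1 as well, 83 without PT1, 31 without PT4 and 5 without batch 3. The number of members called was 1 with the block, 1 with the block and the lower pseudocount and 0 in the other refits. Against 0 features called with Zfp423, 2 were called without the replicate block and 0 to 51 with 1 batch left out, most without batch 2. Among members above 0 in all 7 libraries, 2 were lower in every PT and 3 in every pair. With median-ratio scaling, without batch 3 or with 1 library left out, 4 to 6 members were lower in every PT (7.58% to 15.8% of features above 0) and 6 to 8 in every pair (16% to 29.2%). Unknown depth limits the values under 1 FPKM, among them Meg3, Dlk1 and Zim1 in all PT and Zim1 in all AstroEGFR*, and an exact 0 cannot be read as absence.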
